A study of Homo sapiens with 13 samples.

Results

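Clustered four-factor regions are stretches of the genome where YAP, TAZ, TEAD4 and JUN were all bound and where another such stretch lay close by on the same chromosome. The mapping was done in the human breast cancer line MDA-MB-231 with ChIP-seq, the sequencing of DNA fragments pulled down with an antibody to the bound protein. Peaks of the 4 factors that overlapped by at least 1 bp were merged into 28100 regions, of which 4284 held a peak of every factor. A four-factor region counted as clustered when the gap from its edge to the edge of another was 10 kb or less. This held for 751 regions, which formed 349 clusters, and 3533 four-factor regions were solitary. The clustered regions were 17.5% (exact binomial 95% interval 16.4 to 18.7) of the four-factor regions and 2.67% of all merged regions. They held 765 of the 7709 YAP peaks, 767 of the 9798 TAZ peaks, 774 of the 8406 TEAD4 peaks and 755 of the 24554 JUN peaks.

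All libraries came from MDA-MB-231 cells grown in DMEM:F12 medium with 10% FBS, with no treatment named, and the groups differed in the antibody. Antibodies to YAP, to WWTR1 (the gene product known as TAZ), to TEF-3 (an older name of TEAD4) and to JUN were used in 2 libraries each, with 2 rabbit IgG and 3 mouse IgG libraries as background. YAP and TAZ peaks were called against the same rabbit IgG libraries, while the mouse IgG controls of TEAD4 and JUN had 1 library in common. The deposited data analysed here hold 1 peak list per factor, so no value has a spread between replicates, and read depth is unknown. Every value describes 1 cell line, and positions are on the human genome build hg19.

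YAP and TAZ are paralogous transcriptional coactivators that the Hippo kinases hold back in crowded epithelia. They do not bind DNA themselves and reach it through partners, mainly the TEAD family of transcription factors, of which TEAD4 is one. JUN is a subunit of AP-1, a dimeric factor that binds its own short DNA element, and AP-1 and TEAD elements often occur in the same enhancers of epithelial and cancer cells. A gene can be served by several enhancers, and closely spaced enhancers are a known arrangement at highly active genes. Position and peak presence defined the regions here, so the values of the 4 lists are given as descriptions with no test, and intervals cover counting error only.

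Most clusters were pairs. Of the 349 clusters, 307 (88.0%, 84.1 to 91.2) had 2 members, 33 had 3, 7 had 4 and 2 had 5. The 42 clusters with 3 or more members held 137 of the 751 regions. Pairs spanned a median of 5868 bp, from 1331 to 13479 bp, and the larger clusters a median of 13922 bp and at most 25494 bp. Members covered a median of 36.2% of the span of their cluster, so in the median cluster most of the DNA lay between members.

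The gaps inside clusters had a median of 3652 bp (3278 to 4103, 402 gaps) and quartiles of 1523 and 6616 bp. The TEAD4 summits of neighbouring members lay a median of 4754 bp apart (4340 to 5299). The median gap was thus several times the width of a member, but 72 gaps were under 1000 bp and 38 of these under 500 bp. For all 4261 neighbouring pairs of four-factor regions the median gap was 253059 bp, and from a solitary region to its nearest four-factor neighbour it was 131586 bp. The number of pairs per kb of gap fell with distance: 72 at gaps up to 1 kb, 58 between 1 and 2 kb, 39 between 2 and 5 kb, 31 between 5 and 10 kb, 18.7 between 10 and 20 kb and 9.02 between 50 and 100 kb. The fall went on past 10 kb, which is a fixed limit of the rule, as the histogram of gaps shows.

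**Figure D1:**
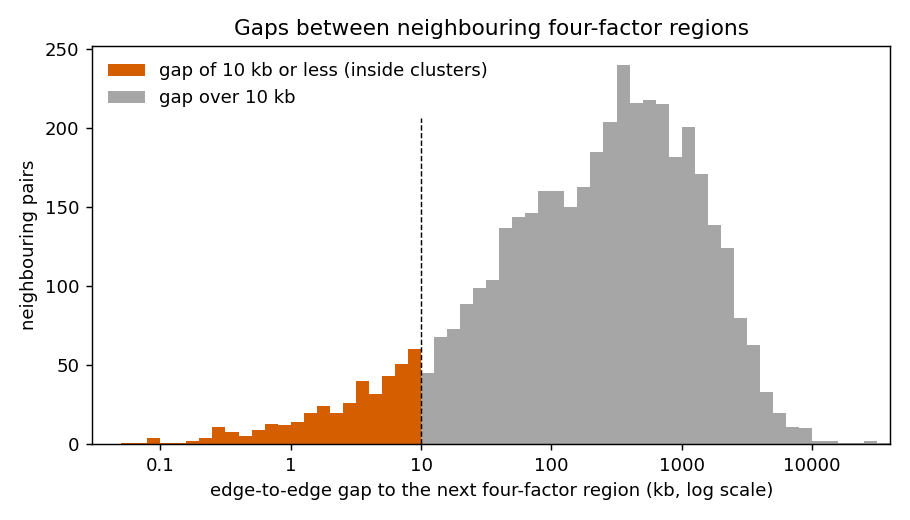
Histogram of the edge-to-edge gap between neighbouring four-factor regions (4261 pairs), in kb on a log axis, against the number of pairs per bar. The 402 gaps inside clusters (orange) form the lower flank of the distribution, and the dashed line marks 10 kb.

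At the limit itself, the widest gap inside a cluster was 9991 bp, between 2 members of a 3-member cluster on chromosome 5 (17238446 to 17239229 and 17249221 to 17250108). The enrichments of these members over IgG were 10.6-fold and 12.5-fold for YAP and 12.6-fold and 18.9-fold for JUN. The narrowest gap outside was 10050 bp, between 2 solitary regions on chromosome 22 (33080312 to 33081242 and 33091293 to 33092410), with 8.30-fold and 5.52-fold for YAP and 14.1-fold and 19.98-fold for JUN. A region is also kept out when 1 peak is missing from a list: 381 of the 3533 solitary regions (10.8%) had a region of exactly 3 factors within 10 kb. The factor missing there was TEAD4 beside 166 of the solitary regions, JUN beside 151, YAP beside 71 and TAZ beside 15. This is also the order of the classes in the whole series, where 1248 regions of exactly 3 factors lacked TEAD4, 1209 lacked JUN, 572 lacked YAP and 120 lacked TAZ. The weakest members lay at the floor of the lists, where the smallest −log10 p of a member was 24.3 in the YAP list, 22.0 in the TAZ list, 24.7 in the TEAD4 list and 54.6 in the JUN list.

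Fold enrichment was almost the same in clustered and solitary regions. For YAP, the median was 8.23-fold (8.02 to 8.50) in clustered and 8.25-fold (8.11 to 8.37) in solitary regions. For TAZ it was 8.82-fold (8.47 to 9.15) and 8.62-fold (8.45 to 8.73). TEAD4, the DNA-binding partner, had 8.27-fold (8.03 to 8.64) and 8.30-fold (8.16 to 8.43). The ratios of these medians lay between 0.997 and 1.02. JUN had 13.8-fold (13.5 to 14.3) in clustered and 14.3-fold (14.1 to 14.5) in solitary regions, a ratio of 0.970, and its clustered median was the higher one on 7 of 23 chromosomes. By −log10 p the same comparison gave ratios above 1 for every factor (YAP 1.08, TAZ 1.12, TEAD4 1.09, JUN 1.08), so for JUN the direction turned with the measure of strength. The box plots of both measures show this shift in −log10 p beside nearly level fold enrichments.

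**Figure D2:**
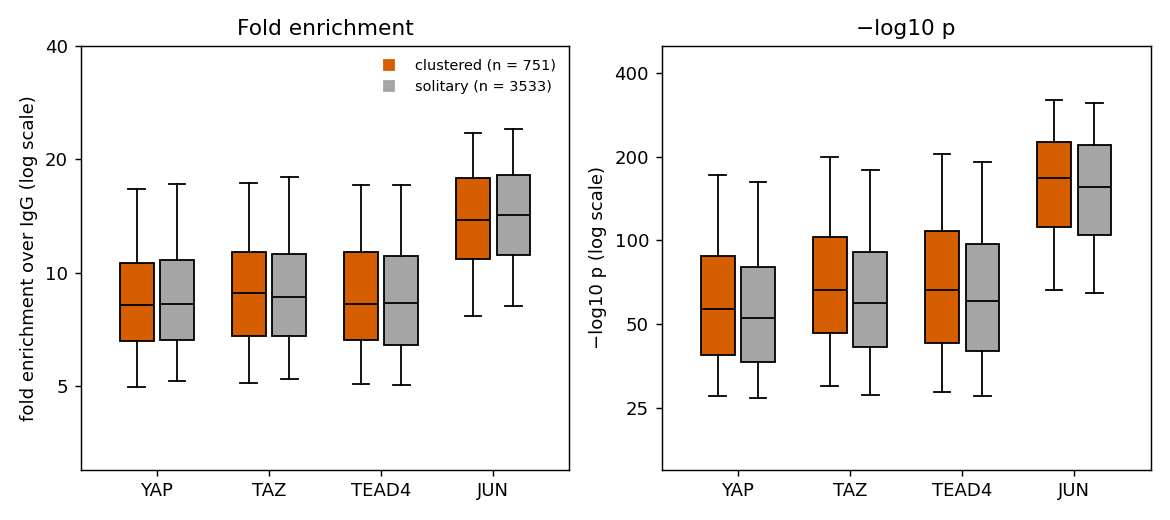
Fold enrichment over IgG (left) and −log10 p (right) of the 4 factors at the 751 clustered and 3533 solitary four-factor regions, both on log axes. Boxes give the median and quartiles and whiskers the 5th to 95th percentile of regions. Median enrichments of YAP, TAZ and TEAD4 are nearly equal in the 2 kinds of region, while the median −log10 p of each factor is higher in clustered ones.

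Clustered regions were wider. Their median width was 981 bp (957 to 1019) against 904 bp (892 to 920) for solitary ones, and the clustered median was higher on 18 of 23 chromosomes. Each factor's own peak showed this: 636 against 598 bp for YAP, 704 against 656 bp for TAZ, 595 against 553 bp for TEAD4 and 908 against 832 bp for JUN. Median width and −log10 p were therefore both higher at clustered regions beside nearly level enrichment, and the part of width in the −log10 p was not tested.

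The share of clustered regions was also read along the order of strength. With the regions in 10 equal parts by YAP enrichment, 16.8% (13.4 to 20.7) of the strongest part and 21.3% (17.5 to 25.4) of the weakest were clustered. By JUN enrichment the shares were 15.4% (12.1 to 19.2) and 22.0% (18.1 to 26.2). For TAZ they were 19.3% and 18.9%, and for TEAD4 18.9% and 16.1%. For YAP and JUN the weakest part thus held the larger share, for TAZ and TEAD4 the strongest part, and for each factor the intervals overlapped. By −log10 p, the strongest and the weakest parts had 20.7% (17.0 to 24.9) and 14.5% (11.3 to 18.2) for YAP, and 21.9% (18.1 to 26.1) and 13.3% (10.2 to 16.9) for TAZ. In the TEAD4 list they had 19.8% (16.1 to 23.9) and 14.95% (11.7 to 18.7), and in the JUN list 20.5% (16.8 to 24.6) and 17.8% (14.3 to 21.7). The strongest part thus held the larger share in every list by this measure, with intervals that overlapped except for TAZ, and for YAP and JUN the direction differs from that by enrichment.

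The summits of the 4 factors lay about as close together in clustered as in solitary regions, with medians at most 3 bp apart. The median distance from the YAP to the TEAD4 summit was 17 bp (16 to 19) and 17 bp (16 to 18). From TEAD4 to JUN it was 32 bp (28 to 36) and 30 bp (28 to 31), and from YAP to JUN 29 bp (26 to 31) and 26 bp (25 to 28). All 4 summits fell within 50 bp in 51.5% (47.9 to 55.2) of clustered and 52.8% (51.2 to 54.5) of solitary regions. By these medians the YAP summit lay nearer to the TEAD4 than to the JUN summit, in clustered and solitary regions alike. JUN peaks were also wider than TEAD4 peaks, and the part of peak width in these distances was not tested. Leaving ties aside, TEAD4 had the summit closer to that of YAP, and JUN the more distant one, in 63.7% (60.1 to 67.2) of clustered and 60.6% (58.9 to 62.2) of solitary regions. TEAD4 and JUN summits over 200 bp apart occurred in 75 clustered regions (9.99%, 7.94 to 12.4) and in 7.61% (6.76 to 8.54) of solitary ones.

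Members of a pair were hardly alike in strength. Across the 307 clusters of 2 members, Spearman's rho between the enrichment of the first and the second member along the chromosome was 0.09 for YAP and for JUN and 0.08 for TAZ and for TEAD4. The members of a pair share libraries, antibody and their place on the chromosome. In the neighbouring four-factor regions over 100 kb apart (2794 pairs), rho was 0.01 for each of YAP, TAZ and TEAD4, and 0.07 for JUN. At gaps of 2 kb or less (130 pairs) it was 0.17 for each of YAP, TAZ and JUN, and 0.09 for TEAD4. At 5 to 10 kb (155 pairs) it was −0.01 for YAP and for TAZ, −0.04 for TEAD4 and 0.01 for JUN. All these values are weak and no relation is read from them.

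The stronger member of a pair exceeded the weaker by a median of 1.38 times in YAP enrichment (quartiles 1.16 and 1.78) and 1.46 times in TAZ, with 1.41 times in both TEAD4 and JUN. The same ratio between neighbours over 100 kb apart was 1.40 in YAP, 1.43 in TAZ, 1.42 in TEAD4 and 1.38 in JUN. Pairs that differed by more than 2 times were fewest in JUN, 44, and most in TEAD4, 60 (19.5%), with 48 in YAP and 49 in TAZ. The difference within a pair was thus about as large as between four-factor regions far apart. Widths were somewhat more alike than enrichments, with rho 0.19 across the 307 pairs against 0.06 for neighbours over 100 kb apart.

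**Figure D3:**
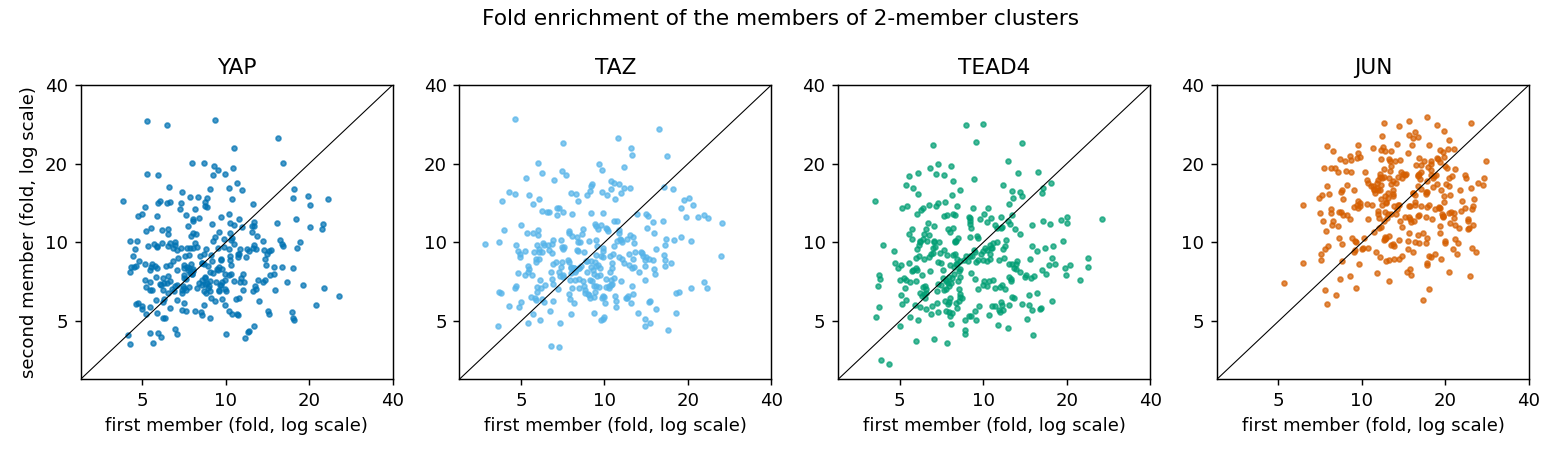
Fold enrichment of the first against the second member along the chromosome in the 307 clusters of 2 members, one panel per factor, both axes on a log scale. The line marks equal values. Points scatter on both sides of it with rho between 0.08 and 0.09.

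Which member of a pair was the stronger followed TEAD4 more than JUN. Neighbours outside clusters were not compared in this way, so whether this is particular to clusters was not tested. Across single solitary regions YAP enrichment also followed TEAD4 (rho 0.60) more than JUN (rho 0.14). The member with the higher YAP enrichment also had the higher TEAD4 enrichment in 215 of the 307 pairs (70.0%, 64.6 to 75.1), and for TAZ and TEAD4 the count was 214 (69.7%, 64.2 to 74.8). For YAP and JUN the count was 168 (54.7%, 49.0 to 60.4), and for TAZ and JUN 171 (55.7%, 49.9 to 61.3). The log2 ratio of the first to the second member was related with rho 0.60 between YAP and TEAD4, 0.58 between TAZ and TEAD4, 0.11 between YAP and JUN and 0.13 between TAZ and JUN. These 4 combinations are those without a common IgG library. YAP with TAZ, and TEAD4 with JUN, have IgG libraries in common and are not compared in this way. Per the raw file names in the labels, YAP and TAZ came from another sequencing run than TEAD4 and JUN, so each of the 4 combinations joins lists of different runs and different IgG, and 1 JUN library came from a further run.

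**Figure D4:**
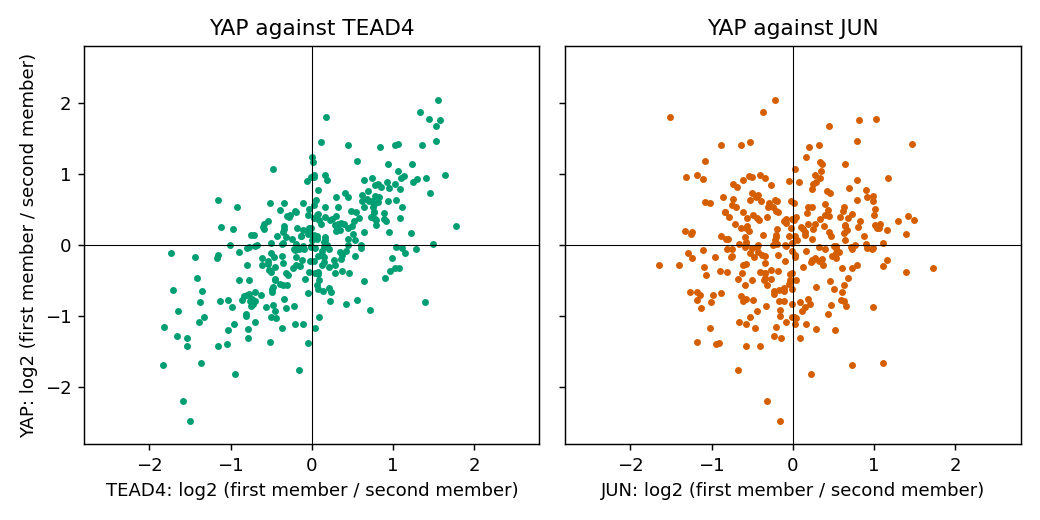
Log2 ratio of the first to the second member of each 2-member cluster (307 points): YAP on the vertical axes, TEAD4 (left) and JUN (right) on the horizontal axes. The points follow a diagonal for TEAD4 (rho 0.60) and form a round cloud for JUN (rho 0.11).

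The larger clusters were read in the same way. Among the 42 clusters with 3 or more members, the strongest YAP member was also the strongest TEAD4 member in 27 (64.3%, 48.0 to 78.4) and the strongest JUN member in 15 (35.7%, 21.6 to 52.0). For TAZ the counts were 26 with TEAD4 and 20 with JUN. Agreement by chance is rarer with more members, so these shares cannot be set beside those of pairs. No count expected by chance was worked out for them, so no fall from pairs to larger clusters is read. The strongest member stood at an end of the cluster in 30 of the 42 when ranked by YAP, 27 by TAZ, 31 by TEAD4 and 29 by JUN, where 26.3 would be met if every position were alike. Median YAP enrichment was 8.28-fold in pairs, 8.03-fold in clusters of 3, 8.63-fold in clusters of 4 (28 regions) and 6.62-fold in clusters of 5 (10 regions), with no steady course from size to size.

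Within a region, YAP enrichment followed TEAD4 enrichment with rho 0.63 across the 751 clustered and 0.60 across the 3533 solitary regions. With JUN, rho was 0.20 and 0.14. For TAZ the values were 0.60 and 0.59 with TEAD4 and 0.21 and 0.17 with JUN. These relations between factors at a site were of like size in clustered and solitary regions. How far the agreement within pairs follows from them was not tested.

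Other bound regions also lay between the members. Of the 349 clusters, 73 (20.9%, 16.8 to 25.6) enclosed at least 1 listed region that lacked 1 or more factors, 86 such regions in all and at most 3 in a cluster. This was 0.516 regions per 10 kb of gap between members. Within 10 kb to each side there were 0.385 per 10 kb for clustered regions, whose flanks include these gaps, and 0.336 for solitary ones. The gap and flank values are not on an equal footing. Flanks reached a full 10 kb out and also counted regions only partly within, while gaps were mostly shorter. JUN alone accounted for 50 of the 86 (58.1%), against 68.4% of the 23816 regions outside the four-factor class in the whole series. The next class, YAP plus TAZ plus JUN, had 6 regions, and 3 further classes had 5 each. JUN was present in 83.7% (74.2 to 90.8) of the enclosed regions, close to its 85.0% of all regions outside the four-factor class. TAZ was present in 30.2% (20.8 to 41.1) against 22.7%, YAP in 18.6% (11.0 to 28.4) against 14.04% and TEAD4 in 18.6% (11.0 to 28.4) against 16.8%.

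The flanks of the members were set beside those of solitary regions. A JUN-only region lay within 10 kb of 35.2% (31.7 to 38.7) of clustered and 33.5% (31.9 to 35.0) of solitary regions. A region of exactly 3 factors lay as near to 12.3% (9.99 to 14.8) and 10.8% (9.78 to 11.9), and a region outside the four-factor class, of whatever kind, to 50.6% (47.0 to 54.2) and 45.7% (44.0 to 47.3). Regions of TEAD4 and JUN alone were near 3.06% (1.95 to 4.56) of clustered and 1.70% (1.30 to 2.18) of solitary regions, and regions of TAZ and JUN alone near 5.46% (3.95 to 7.33) and 3.93% (3.32 to 4.63). Each of these shares was somewhat higher beside clustered regions, with overlapping intervals. TEAD4-only regions went the other way, near 1.60% (0.828 to 2.77) of clustered and 1.87% (1.45 to 2.37) of solitary regions, also with overlapping intervals. Farther out, 113 clusters (32.4%) had a solitary four-factor region within 50 kb, and 35 (10.0%, 7.09 to 13.7) had another cluster within 100 kb.

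Every chromosome with four-factor regions carried clusters. The clustered share ran from 7.69% on X (4 of 52 regions, 2.14 to 18.5) and 9.84% on chromosome 13 (12 of 122) to 25.9% on chromosome 14 (38 of 147, 18.99 to 33.7) and 30.8% on chromosome 22 (16 of 52, 18.7 to 45.1). Chromosome 1 had the most, 89 of 439 regions in 41 clusters. The median gap between four-factor regions was 1436260 bp on X and 115631 bp on chromosome 22. Both values come from the same gaps, and chromosome 18 combined a clustered share of 24.5% with a median gap of 372208 bp.

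The 2 clusters with 5 members both lay on chromosome 10. No annotation of hg19 was used here, and gene names beside positions in this and the following paragraphs are background from general knowledge of that map, with only the chromosome of each gene checked. The first (95218314 to 95236073) lies in the MYOF locus; myoferlin is a membrane protein that takes part in membrane repair and is abundant in basal-like breast cancer cells. Its first member had 14.3-fold YAP, 16.1-fold TAZ, 16.8-fold TEAD4 and 27.5-fold JUN enrichment. The fourth had 11.3-fold YAP, 11.3-fold TAZ, 8.95-fold TEAD4 and 23-fold JUN. The other members had 5.82-fold to 6.68-fold YAP and 12.6-fold to 14.7-fold JUN, so 2 of the 5 sites carried the strongest signal of all factors.

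The other 5-member cluster (75646540 to 75667218) lies beside PLAU, which encodes urokinase, a protease of the cell surface. Its first member had 13.7-fold YAP, 12.7-fold TAZ, 11.9-fold TEAD4 and 17.9-fold JUN. Its last member had 10.6-fold YAP, 8.78-fold TAZ, 10.3-fold TEAD4 and 10.4-fold JUN, with all 4 summits within 4 bp. The 3 inner members had 5.38-fold to 6.23-fold YAP and 3.79-fold to 7.70-fold TEAD4. The ends were thus the strong sites for YAP, TAZ and TEAD4, while the last member had the lowest JUN value of the 5. In the second member the JUN summit lay 717 bp from that of TEAD4.

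Of the 7 clusters with 4 members, 6 are described, those with the better mean ranks of enrichment. On chromosome 1 (172866627 to 172887642), the outer members had 18.7-fold and 17.9-fold YAP, 13.2-fold and 15.1-fold TEAD4, and 19.6-fold and 21.8-fold JUN. YAP was thus highest in the first member, and TEAD4 and JUN in the last. The inner ones had 9.88-fold and 6.54-fold YAP and 9.93-fold and 13.4-fold JUN. This cluster also enclosed 1 region of YAP, TAZ and JUN and 1 of YAP, TAZ and TEAD4, so 6 sites of YAP and TAZ lay within 21016 bp.

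On chromosome 20 (30283559 to 30309052), the cluster lies in the locus of BCL2L1, which encodes the survival protein Bcl-xL. Its last member had 16.1-fold YAP, 16.9-fold TAZ and 18.2-fold TEAD4 but 5.76-fold JUN, the strongest of the 4 members for the first 3 factors and the weakest for JUN. The first member had 11.0-fold YAP, 8.93-fold TAZ, 11.0-fold TEAD4 and 14.4-fold JUN. The third had 6.16-fold YAP and 4.20-fold TEAD4, with its TEAD4 summit 680 bp from that of JUN. Over the first 3 members TEAD4 and JUN enrichment both dropped from one member to the next, and they parted at the last.

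On chromosome 14 (93498748 to 93513011), in the locus of the inositol phosphate kinase ITPK1, the third member had 12.3-fold YAP, 13.9-fold TAZ, 16.1-fold TEAD4 and 15.4-fold JUN. The second had 8.78-fold YAP and the highest JUN of the cluster, 18.6-fold, and the third and last members were 97 bp apart. On chromosome 3 (43794898 to 43812866), the 4 members were more even, with 5.54-fold to 9.82-fold YAP, 8.05-fold to 11.6-fold TEAD4 and 13.6-fold to 18.3-fold JUN. There YAP was highest in the last member, and TEAD4 and JUN in the first. On chromosome 11 (86430677 to 86453710), the last member had the highest JUN, 19.9-fold, with 6.68-fold YAP, while the first had the highest YAP, 12.1-fold, and TEAD4, 10.9-fold. On chromosome 10 (10827587 to 10847952), the first member had the highest YAP, 13.1-fold, and TEAD4, 14.4-fold, and the second the highest TAZ, 12.8-fold, and JUN, 17.7-fold. In these last 2 clusters the strongest YAP and TEAD4 site was not the strongest JUN site.

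**Figure D5:**
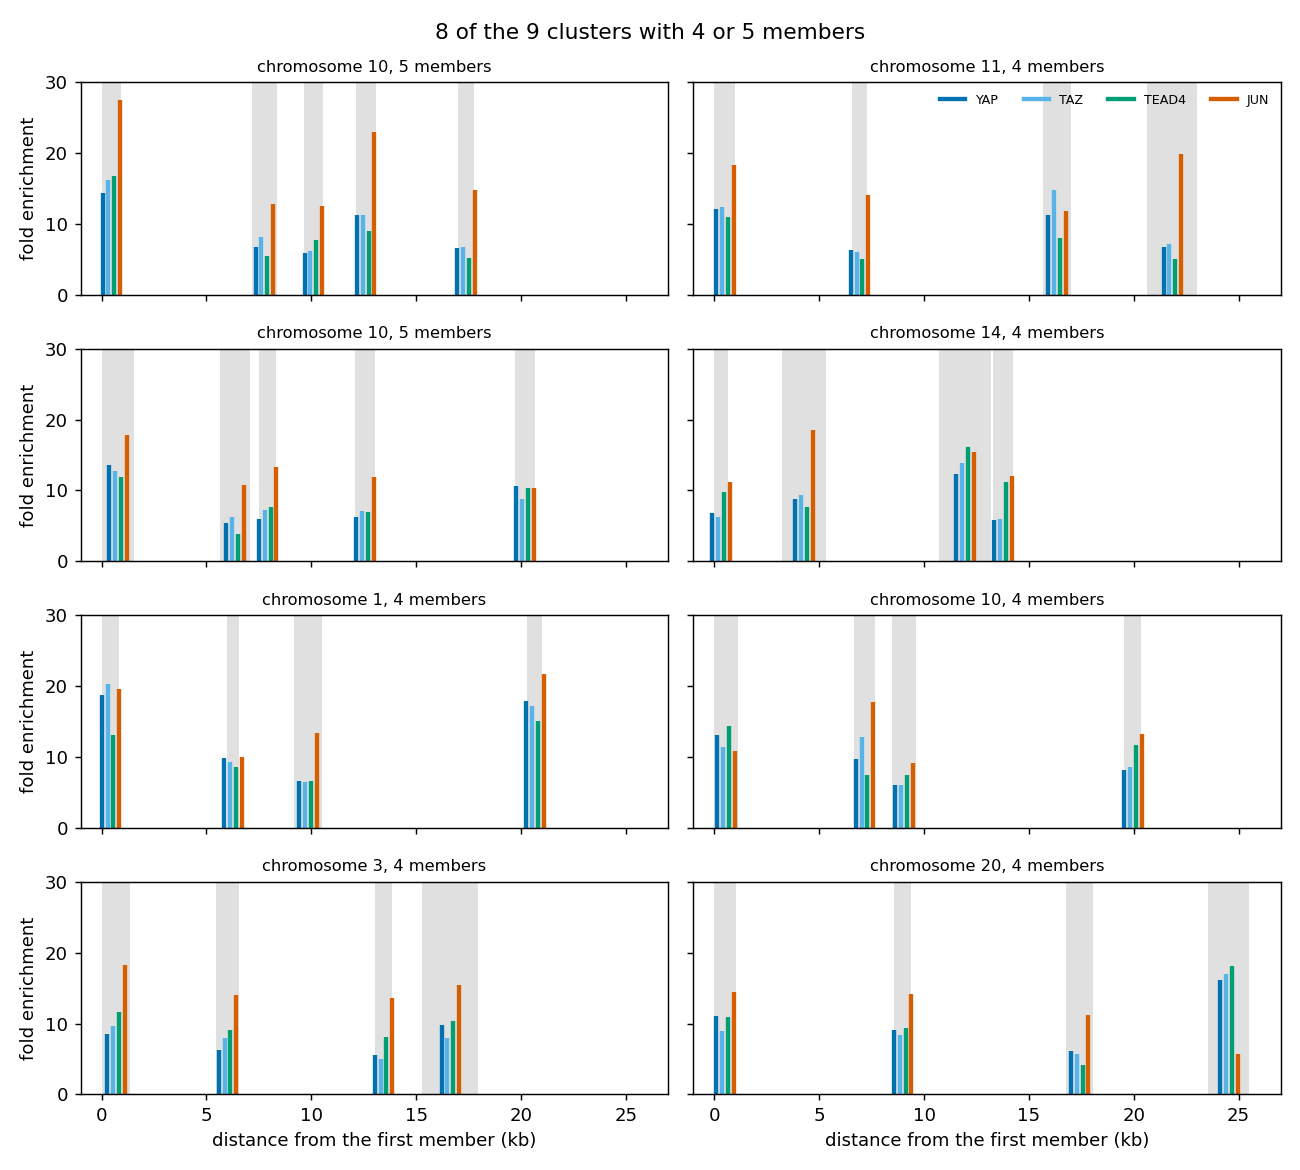
Fold enrichment over IgG (vertical axes, linear from 0) of YAP, TAZ, TEAD4 and JUN at each member of 8 of the 9 clusters with 4 or 5 members, against the distance from the start of the first member in kb. Grey bands are the merged regions, and the 4 bars of a member are drawn side by side at its middle. In the chromosome 20 cluster the last member has the highest YAP, TAZ and TEAD4 bars and the lowest JUN bar, 5.76-fold.

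When clusters were ranked by the enrichment of their members, averaged over the ranks in all lists, the top 5 were pairs, and those ranked 2 to 5 are described in that order. The pair on chromosome 19 (41729194 to 41730336 and 41731204 to 41732731), lies in the locus of AXL, a receptor tyrosine kinase and known target of YAP. The first member had 20.2-fold YAP, 20.2-fold TAZ, 26.7-fold TEAD4 and 21.6-fold JUN, with the 4 summits within 61 bp. The second had 13.9-fold YAP, 14.8-fold TAZ, 12.3-fold TEAD4 and 19-fold JUN, and its JUN summit was 400 bp from that of TEAD4. The first member was therefore higher in all 4 lists, most of all for TEAD4.

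Next came a pair on chromosome 14 that joined the region at 100045753 to 100046914 (25.2-fold YAP, 23.9-fold TEAD4, 29.1-fold JUN) in the CCDC85C locus to a neighbour 3340 bp away (100040417 to 100042412). The neighbour had 15.5-fold YAP, 13.8-fold TEAD4 and 14.8-fold JUN, and its JUN summit lay 700 bp from that of TEAD4, against 3 bp in the stronger region. A pair on chromosome 5 (14264583 to 14266638 and 14267999 to 14269190), lies in TRIO, which encodes a large signalling protein that acts on the actin cytoskeleton. Here the first member had the higher YAP (16.0-fold against 9.85-fold) and the second the higher JUN (26.6-fold against 19.7-fold). The last of these pairs, on chromosome 22 (27852704 to 27853837 and 27856833 to 27858102), had 11.0-fold and 16.9-fold YAP, 8.66-fold and 28.2-fold TEAD4 and 18.7-fold and 21.1-fold JUN. In that pair TEAD4 differed most between the sites and JUN least.

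The strongest member of each list was picked as the highest of the 751, so a lower value at its neighbour follows from the choice. The highest YAP value, 29.4-fold, was at a region on X (46186865 to 46187653) with 11.6-fold JUN, and its neighbour had 9.17-fold YAP but 19.1-fold JUN. The highest TAZ (29.7-fold) and TEAD4 (28.3-fold) values were both at a region on chromosome 19 (2540487 to 2541370) in the locus of GNG7, which encodes a G protein gamma subunit. Its neighbour had 4.75-fold TAZ and 10.0-fold TEAD4, and the JUN values of this pair were 12.8-fold and 11.5-fold. The highest JUN value, 30.2-fold, was on chromosome 8 (8152932 to 8154643), where YAP was 6.68-fold and the neighbour had 7.08-fold YAP and 17.2-fold JUN. The regions with the top YAP and the top TAZ and TEAD4 values thus had JUN below the median of 13.8-fold of clustered regions. The member with the top JUN value had YAP below its median of 8.23-fold and TAZ, 7.69-fold, below 8.82-fold. Its TEAD4, 8.37-fold, was just above the median of 8.27-fold. These are a few regions picked as extremes, and across all 751 clustered regions rho between YAP and JUN was 0.20.

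The closest members lay 54 bp apart in a 3-member cluster on chromosome 1, near CCN1, which encodes the matricellular protein CYR61 and is a classical target gene of YAP and TAZ. The close members (86077150 to 86078170 and 86078225 to 86079344) had 8.93-fold and 8.96-fold YAP, 7.92-fold and 10.0-fold TEAD4 and 8.62-fold and 9.24-fold JUN. The remaining member (86071875 to 86073977), 3172 bp away, had 13.3-fold YAP, 16.8-fold TAZ, 15.9-fold TEAD4 and 24.3-fold JUN, the highest of the 3 in every list. The 3-member cluster with the widest gap, on chromosome 5, lies in the locus of BASP1, which encodes a membrane-bound protein of the cell cortex. Its last member (17257856 to 17259117) had 5.14-fold YAP and 11.7-fold JUN, below the 2 members given above.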

How the data were processed

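ChIP-seq libraries of MDA-MB-231 were grouped by factor from their titles and the IgG libraries by antibody (13 libraries). Peak calling by the authors used IDR, the irreproducible discovery rate, at 0.01 and with pooled IgG as control, per the labels. The submitters' processing notes name CASAVA, Bowtie 0.12.7, SAMtools, MACS2 2.0.10 and hg19. Each deposited list gives per peak the start, end and summit offset (other columns), the fold enrichment over IgG (a ratio) and the −log10 p of the authors. The deposited −log10 q values and score were not used. These are the authors' values per peak, with none per replicate, and read depth is unknown. Names of TAZ peaks bear the tag YAPTAZ and names of JUN peaks a replicate tag of their own, and what these tags stand for is unknown here. A factor's strongest peak by enrichment stands for a region. Intervals are exact binomial (Clopper-Pearson) 95%, or binomial order-statistic 95% for medians; both take regions as independent. Starts are counted from 1. Merging and clustering were tested on simulated peaks. Python 3.11.15, pandas 2.3.3 and scipy 1.17.1 were used.

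The members, lists and naming rule were chosen with earlier results of these data known. Regions named are the clusters with most members (8 of 9, by mean rank of enrichment), the 5 of best mean rank (1 is not reported here), the strongest member of each list, and the closest and widest gaps. The DNA motifs, distances to start sites and gene lists in the design were not analysed here, since no genome or annotation of hg19 was used; 10 locus names come from general knowledge, and RefSeq (GRCh38.p14) gave the same chromosome for all 10. Alternatives are given in the closing section.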

Additional observations from a re-analysis of the deposited data

How the results depend on the processing

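Among 100 alternative values for 17 results, 79 fell inside the 95% interval of the main value (counts: less than 1.5 times away) and 21 moved further. The 751 clustered regions in 349 clusters became 473 in 226 with a gap of 5 kb or less, 149 in 73 with the stronger 50% of each list, and 238 in 112 with lists of equal length. Within 20 kb there were 1065 in 476. The share of four-factor regions that were clustered was 11.0% at 5 kb, 24.9% at 20 kb, 15% with peaks narrowed to 200 bp, 8.91% with the stronger 50% and 10.7% with equal lists. The share of clusters with 3 or more members was 7.96% at 5 kb, 18.3% at 20 kb and 4.11% with the stronger 50%. Clusters that enclosed another listed region made up 11.1% at 5 kb and 31.1% at 20 kb. The settings joined over a shorter or longer distance or held fewer peaks, and narrowing changed the merging and left 3966 four-factor regions. The part of each of these in the shifts was not tested. With −log10 p in place of fold enrichment, the ratio of clustered to solitary medians was 1.08 (YAP), 1.12 (TAZ), 1.09 (TEAD4) and 1.08 (JUN); the cause was not tested. The median width of members was 247 bp with narrowed peaks, by construction. With narrowed peaks, 591 of the 751 members (78.7%) overlapped a region that was still clustered. Leaving out each chromosome in turn kept the 4 enrichment ratios, the YAP to TEAD4 and TEAD4 to JUN distances, the median width and the rho between members for each factor within their intervals; it was not run for other values. Neither replicate of a factor could be left out, since both stand behind 1 list. No paired analysis was possible because no values per replicate were analysed. The motif and start-site alternatives were not run. Depth is unknown, and so is its limit on these values.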

Other observations

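The numbers in the peak names rise along each chromosome in all 4 lists. If they count all candidate peaks, consecutive numbers mean that no candidate, listed or unlisted, lay between members. Among neighbouring members with a single peak of the factor each, the numbers were consecutive in 72.3% (67.5 to 76.7) of 379 TEAD4 pairs, 67.0% (62.1 to 71.7) of 388 YAP pairs, 63.0% (57.9 to 67.8) of 386 TAZ pairs and 50.8% (45.7 to 55.8) of 398 JUN pairs. The share was lowest in the JUN list, which also had the most listed peaks between members. Of the 86 enclosed regions, 72 held JUN, 26 TAZ, 16 YAP and 16 TEAD4. Breaks from listed and from unlisted candidates were not told apart.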
